A study of Mus musculus with 16 samples.

Results

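The CIDE proteins Cidea, Cideb and Cidec, the perilipins Plin2, Plin3, Plin4 and Plin5, the FITM proteins Fitm1 and Fitm2 and the lipase inhibitor G0s2 act on lipid droplets, the stores of neutral lipid inside cells. Their transcripts were measured by microarray in mouse liver, and these 10 genes are described here of 19096 genes with a named probe. The genes were chosen from their family membership with signals of the same 16 arrays in view, so that their levels across the 4 groups are given as a description, with no p-value. Each of the 10 genes had 1 probe on the array, and each probe was well above background on 16 of 16 arrays, so that all 10 passed the filter on low signals.

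All mice were males and were given a single dose of the liver carcinogen diethylnitrosamine (DEN, 90 mg/kg) at 5 weeks of age, the control groups included. The WT DEN group consisted of 4 C57BL/6J wild type mice kept on plain water, and the WT DEN + PB group of 4 such mice whose water held the tumor promoter phenobarbital (PB, 0.5 g/l) once they were 7 weeks old. The KO DEN and KO DEN + PB groups were the corresponding 4 and 4 mice with a null mutation of Gadd45b, a stress-inducible gene. RNA of liver outside tumors was taken at 57 weeks of age, 1 array per mouse. The KO line came as a stock of mixed B6;129S6 background while WT mice were C57BL/6J, so that the mutation and linked or residual strain differences cannot be told apart. The mutation was in the whole animal and not limited to hepatocytes.

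A lipid droplet is a core of triglyceride and sterol ester under a single layer of phospholipid, and proteins on that layer decide how fast the core grows or is broken down. In the liver, perilipins shield droplets from lipases, CIDE proteins join small droplets into larger ones or load lipid onto lipoproteins, FITM proteins act in the endoplasmic reticulum where droplets form, and G0s2 inhibits adipose triglyceride lipase (Pnpla2). Cidea and Cidec are abundant in fat and are low in a lean liver, where they are known to rise in steatosis.

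The values below are scaled signals, which are the processed fluorescence of a probe divided by the 75th percentile of its array. A difference is given on the log2 scale with its standard error (SE) from limma, a linear model fitted to all tested probes at once. A gene was called when its Benjamini-Hochberg adjusted p was below 0.05 and the difference was at least 1.5-fold. Gadd45b, the targeted gene, was well above background on 8 of 8 WT and 0 of 8 KO arrays, and was at least 32.5-fold higher in WT (two-sided exact permutation p = 0.000155, the smallest that 12870 assignments allow). Cyp2b10, the classical PB target, was higher with PB by a log2 difference of 6.69 ± 0.62 in WT mice and of 6.80 ± 0.62 in KO mice. The arrays had 75th percentiles of 137 to 294 processed signal units and 58.3% to 67.7% of probes well above background. Albumin and the other hepatocyte markers with a probe (5 of 6) were well above background, with summed scaled signals between 793 and 1205 over the 16 arrays.

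The upstream sequences of 3 genes are shown first. Cidec was among the genes that differed most by genotype. Among the 9 genes with an upstream sequence to search, only Plin2 and Plin5 matched the hexamer recognised by nuclear receptors such as PPARα. The sequences are the 250 bases before an annotated RefSeq start on GRCm38.p6, 5′ to 3′ on the minus strand, and capitals mark the hexamer (AGGTCA, or TGACCT on the other strand). They lie at chr6:113435761-113436010 for Cidec, chr4:86670060-86670309 for Plin2 and chr17:56117549-56117798 for Plin5.
Cidec: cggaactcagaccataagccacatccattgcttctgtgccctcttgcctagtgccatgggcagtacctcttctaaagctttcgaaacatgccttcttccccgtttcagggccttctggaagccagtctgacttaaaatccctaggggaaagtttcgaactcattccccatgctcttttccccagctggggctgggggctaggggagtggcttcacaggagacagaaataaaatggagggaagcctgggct
Plin2: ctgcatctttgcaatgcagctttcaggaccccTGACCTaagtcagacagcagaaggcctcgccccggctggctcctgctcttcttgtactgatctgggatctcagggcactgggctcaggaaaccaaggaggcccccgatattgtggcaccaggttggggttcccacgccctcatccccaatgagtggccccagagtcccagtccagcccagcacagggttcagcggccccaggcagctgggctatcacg
Plin5: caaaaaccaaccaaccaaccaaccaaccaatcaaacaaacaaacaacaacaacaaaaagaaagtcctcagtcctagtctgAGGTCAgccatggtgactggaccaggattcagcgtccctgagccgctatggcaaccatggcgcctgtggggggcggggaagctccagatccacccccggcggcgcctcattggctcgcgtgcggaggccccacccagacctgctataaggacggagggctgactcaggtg
The table of promoters held 11 starts for 9 of the 10 genes and none for Cidea, whose upstream sequence was not searched. The hexamer began 218 bases before the start of Plin2 and 170 bases before that of Plin5. It was in 2 of the 11 upstream windows of these genes and in 14.0% of all 32851 windows of that length. A direct repeat of AGGTCA spaced by 1 base was in 0.0335% of all windows and the E-box CACGTG in 6.02%, both strands searched, and neither was in any of the 11. A match is a description of the letters only. Plin4 and Plin5 are neighbours on chromosome 17 with 0 protein-coding genes between them, Plin3 lies 7 protein-coding genes from Plin5, and 17 separate Fitm1 from Cideb on chromosome 14, while the other 5 genes lie on chromosomes of their own.

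**Figure D1:**
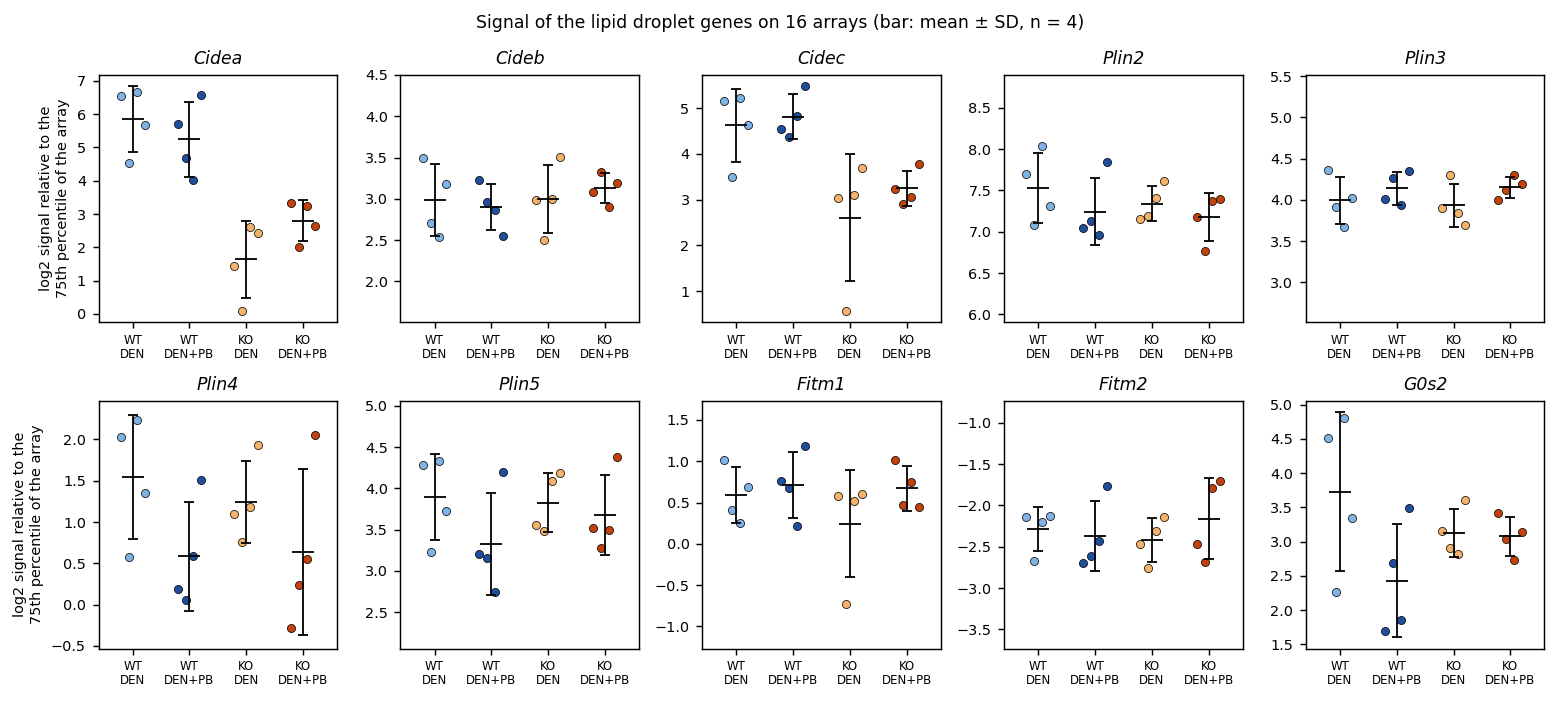
Signals of the 10 lipid droplet genes. Each point is 1 array, the vertical axis is the log2 signal relative to the 75th percentile of the array, and bars give the mean ± SD of 4 arrays. Cidea lay lower on all 8 KO arrays than on any WT array, Cidec lay below every WT array on 6 of 8 KO arrays, and the groups of the other 8 genes overlapped.

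Cidea, which promotes droplet fusion, had the largest difference by genotype among the 10 genes. Its scaled signals in replicates 1 to 4 were 93.4, 23.1, 102 and 51.5 in WT DEN, and 2.73, 1.06, 6.08 and 5.42 in KO DEN. The 4 KO arrays were all below the 4 WT arrays. The fitted difference was -4.21 ± 0.62, or 18.5-fold lower in KO. With PB the signals were 51.7, 25.5, 16.3 and 95.1 in WT and 10.2, 3.99, 9.38 and 6.25 in KO. Again the groups did not overlap, and KO was 5.41-fold lower (log2 difference -2.44 ± 0.62). From high to low the order was WT DEN, WT DEN + PB, KO DEN + PB and KO DEN, in which the 2 WT groups overlapped each other and the 2 KO groups overlapped each other. The PB difference was -0.62 ± 0.62 in WT and 1.16 ± 0.62 in KO. The lower level in KO was called under both regimens. As a description of how the fitted values vary, and not as support, the difference under DEN was -4.31 to -3.84 over 11 other processing settings and -4.66 to -3.69 with each of the 16 arrays left out. Under DEN + PB it was -2.77 to -2.14 over those settings, and the gene was no longer called without WT DEN + PB replicate 1 (-2.28) or 4 (-1.99) and without KO DEN + PB replicate 2 (-2.17) or 4 (-2.38), nor in 3 of the 11 settings. Between arrays of the same slide, KO minus WT was -5.23 and -6.45 under DEN on the 2 slides that held both groups, and -2.03, -3.23, -3.69 and -0.79 under DEN + PB on 4 slides.

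Cidec, also known as Fsp27 and a driver of large single droplets, had a difference of the same direction and smaller size. The scaled signals were 35.5, 11.3, 37.4 and 24.9 in WT DEN and 8.22, 1.48, 8.61 and 13.0 in KO DEN. KO DEN replicate 4 was above WT DEN replicate 2, so that the groups overlapped at 1 pair of arrays. The difference was -2.03 ± 0.53 and was called, but lay close to the threshold. It was called in 3 of 11 other settings and in 2 of 16 fits that left out 1 array, and the difference was -1.35 without KO DEN replicate 2. With PB the signals were 23.5, 20.8, 28.4 and 45.0 in WT and 9.42, 7.48, 8.38 and 13.7 in KO. Here all 4 KO arrays were below all 4 WT arrays, with a difference of -1.57 ± 0.53 that was not called. The order of the levels was WT DEN + PB, WT DEN, KO DEN + PB and KO DEN, and both neighbouring pairs of equal genotype overlapped. PB differences were 0.18 ± 0.53 in WT and 0.64 ± 0.53 in KO.

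Cideb, the CIDE protein of hepatocytes that acts in the maturation of very low density lipoprotein, differed little between groups. Its signals lay between 5.83 and 11.3 in WT DEN, 5.88 and 9.34 in WT DEN + PB, and 5.65 and 11.4 in KO DEN, and the KO DEN + PB arrays lay within that last range. All 4 groups overlapped. The KO minus WT differences were 0.01 ± 0.23 under DEN and 0.22 ± 0.23 under DEN + PB. On the same arrays the 3 CIDE genes had genotype differences of -4.21, -2.03 and 0.01 under DEN.

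**Figure D2:**
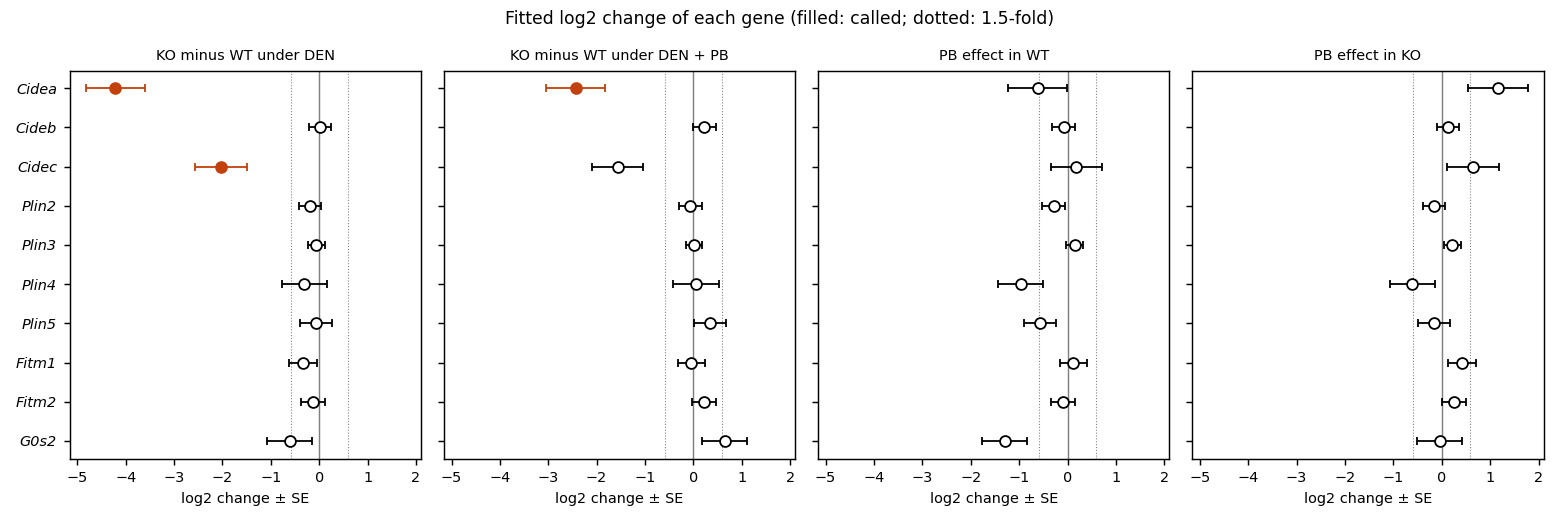
Fitted log2 difference of each of the 10 genes in 4 comparisons. Points are fitted differences, bars are SE, filled points were called and dotted lines mark 1.5-fold. Cidea and Cidec lie left of 0 in both genotype comparisons, and no gene was called for PB.

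Over the 10 genes, 2 were called for KO minus WT under DEN (Cidea and Cidec, both lower) beside 2.76% of the 13302 genes tested. Under DEN + PB, 1 was called (Cidea, lower) beside 7.60% of genes. Since these contrasts were in view when the genes were chosen, nothing is read from those counts. Groups that did not overlap were found for 1 of 10 genes under DEN, against 11.0% of genes tested, and for 2 of 10 under DEN + PB, against 17.4%. The median difference over the 10 genes was -0.25 under DEN and 0.03 under DEN + PB, and the medians of all genes were -0.04 and 0.03.

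The perilipins differed less by genotype. Plin2, the main perilipin of hepatocytes and a standard index of stored lipid, had signals of 208, 135, 262 and 159 in WT DEN, 132, 140, 124 and 230 in WT DEN + PB, 142, 146, 170 and 197 in KO DEN, and 145, 109, 166 and 169 in KO DEN + PB. All groups overlapped, and the KO minus WT differences were -0.19 ± 0.23 under DEN and -0.06 ± 0.23 under DEN + PB. Plin3, which is found widely in the cytosol and moves onto young droplets, varied least of the perilipins, from 12.7 to 20.6 over the 16 arrays. Its 5 fitted differences were between -0.07 and 0.22.

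Plin5, which couples droplets to mitochondria in oxidative tissue, had signals of 19.5, 9.41, 20.1 and 13.2 in WT DEN and 9.23, 8.91, 6.70 and 18.4 in WT DEN + PB. In KO they were 11.7, 11.2, 17.0 and 18.3 under DEN and 11.5, 9.73, 11.3 and 20.8 under DEN + PB. In WT DEN + PB, 3 arrays were below every WT DEN array while replicate 4 was within the WT DEN range. The PB difference was -0.57 ± 0.32 in WT and -0.16 ± 0.32 in KO, and neither was called.

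Plin4, a perilipin of adipocytes and muscle, had signals of 4.08, 1.5, 4.73 and 2.55 in WT DEN and 1.14, 1.04, 1.5 and 2.84 in WT DEN + PB. Its signals in KO were 2.14, 1.69, 2.27 and 3.82 under DEN and 0.823, 1.17, 1.47 and 4.14 under DEN + PB. In both genotypes 1 array with PB, replicate 4, stood above the other 3. The PB differences were -0.97 ± 0.47 in WT and -0.61 ± 0.47 in KO and were not called.

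Fitm1 and Fitm2, which help droplets bud from the endoplasmic reticulum, were flat across the groups. Fitm1 had signals of 1.16 to 2.28 on 15 of the 16 arrays, and 0.605 on KO DEN replicate 2. Fitm2 lay between 0.148 and 0.307 on all arrays. The largest of their differences was 0.42 ± 0.29, for Fitm1 with PB in KO, and none was called.

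G0s2 had signals of 22.7, 4.82, 27.9 and 10.2 in WT DEN and 3.25, 6.42, 3.60 and 11.2 in WT DEN + PB. WT DEN replicates 1 and 3 stood above every WT DEN + PB array, whereas replicates 2 and 4 lay within their range. In KO the signals were 8.94, 7.50, 7.05 and 12.2 under DEN and 10.6, 8.20, 6.62 and 8.84 under DEN + PB, a narrower spread than in WT. The PB difference was -1.30 ± 0.47 in WT and -0.04 ± 0.47 in KO, and neither was called. The difference between those differences was -1.26 ± 0.66 and was not called.

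For PB, limma called 0 of the 10 genes in WT and 0 in KO, beside 0.737% and 2.13% of the genes tested, and 0 of 10 for the difference of the PB effect between genotypes, beside 0% of genes. The counts at an unadjusted p below 0.05 were 1 (G0s2), 0 and 0, and a linear model without moderation of the variances called 0, 0 and 0. Since the genes were chosen from these signals, these counts describe the fit and test nothing. In none of the 10 genes were the 4 PB arrays all above or all below the 4 DEN arrays of the same genotype, against 5.16% of genes in WT and 8.60% in KO. The PB difference in WT was fitted lower than in KO in 10 of 10 genes, with a median of -0.35 beside -0.04 over all genes, but in 8 of 10 after quantile normalization and 4 of 10 in the deposited table without scaling, where the median over all genes moved to 0.35. It was also below 0 in 8 of 10 without KO DEN replicate 2. The 5 hepatocyte markers were fitted the same way in 5 of 5, with a median of -0.26, and all 5 were fitted lower with PB in WT, with a median of -0.40. The part of hepatocyte RNA in this pattern was not tested. The median over the 10 genes was -0.20 without KO DEN replicate 2, -0.19 without KO DEN + PB replicate 4, -0.55 without WT DEN replicate 2 and -0.61 without WT DEN + PB replicate 4. The SE of the single differences ranged from 0.24 to 0.87, the signals of these genes moved together between arrays, as described next, and all 10 differences rest on the same 16 arrays.

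**Figure D3:**
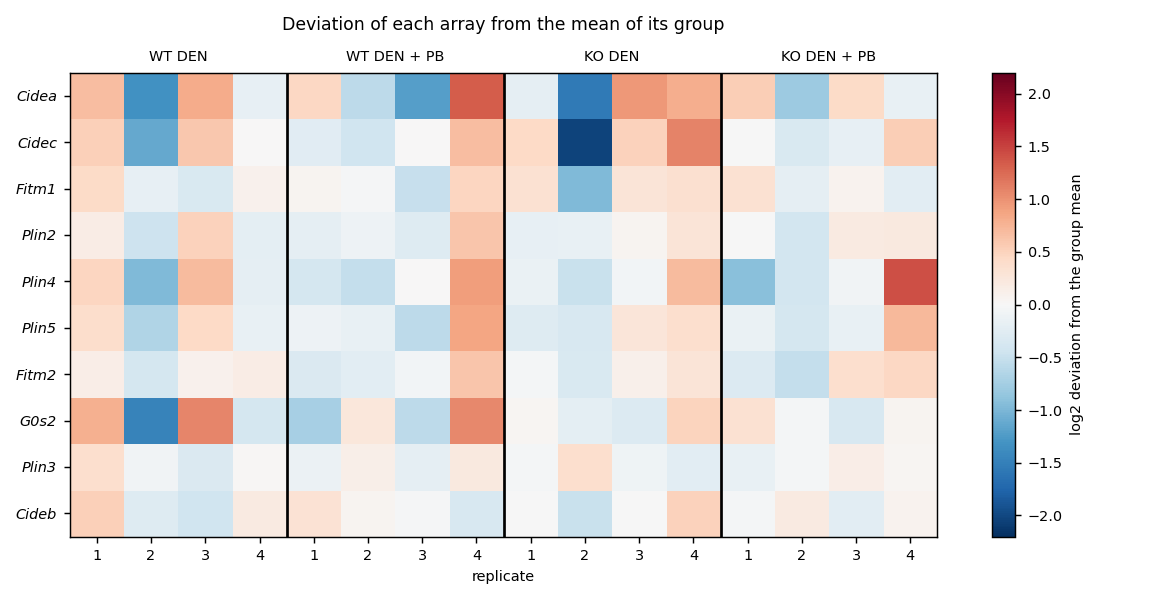
Deviation of each array from the mean of its group for the 10 genes, as log2. Columns are the 4 replicates of each group and red is above the group mean. WT DEN replicate 2 is below its group mean in all 10 genes and WT DEN + PB replicate 4 is above it in 9.

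Within groups most of these genes were high or low together from mouse to mouse. After the group mean was taken from each signal, 40 of 45 pairs of genes had a positive Pearson r over the 16 arrays, with a median of 0.49 and a range from -0.37 to 0.89. The highest were Plin2 with Plin5 (0.89), Plin4 with Plin5 (0.85) and, among the CIDE genes, Cidea with Cidec (0.77). Plin3 and Cideb stood apart from this, with median correlations of 0.04 and 0.10 to the other 9 genes. These values are a description. The points share arrays, labelling and depth of signal, and genes on 1 array are not independent.

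The same arrays carried much of this spread. WT DEN replicate 2 was below its group mean in 10 of 10 genes and lowest of its group in 7. WT DEN replicates 1 and 3 were both above replicates 2 and 4 in 6 genes, namely Cidea, Cidec, Plin2, Plin4, Plin5 and G0s2. WT DEN + PB replicate 4 was the highest of its group in 9 of 10 genes, the exception being Cideb. In KO DEN, replicate 4 was highest in 8 genes and replicate 2 lowest in 7. In terms of Plin2 alone, WT DEN + PB replicate 4 had a signal of 230 where the other 3 arrays of that group had 124 to 140.

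Of all 10 genes Cidea and Cidec varied most over the 16 arrays, and the genes with the most similar pattern were ranked for both by Pearson r over 16 arrays among 12913 genes. Closest to Cidea were Vwa8 (r = 0.91), Pla2g4a (0.91), which encodes a cytosolic phospholipase, Cidec itself (0.90), Tlr7 (0.89), an RNA sensor of immune cells, and Scarb2 (0.89), a lysosomal membrane protein. Their r after removal of the group means was 0.59, 0.61, 0.77, 0.77 and 0.66 in that order. Among the genes closest to Cidec were Mmgt1 (0.93), Chpt1 (0.91), which makes phosphatidylcholine, Napepld (0.90) and Laptm4b (0.90). The r of these genes after removal of the group means was 0.82 to 0.85. The arrays of Cidea fall into WT and KO clusters, so that the pooled r of its neighbours mostly ranks genes that differ by genotype.

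The wider droplet pathway was followed in a list of 40 genes that does not include these 10, of which 39 were tested. Plin1, the perilipin of adipocytes, was well above background on 0 of 16 arrays. Under DEN, 1 of 39 differed by genotype, beside 2.76% of all genes tested, a share near the background. This was Lpl, the lipase that frees fatty acids from circulating lipoproteins, with signals of 1.64, 2.63, 3.50 and 2.68 in WT DEN and 1.10, 1.02, 1.07 and 1.35 in KO DEN. All KO arrays were lower and the difference was -1.16 ± 0.24 (limma adjusted p = 0.0170). This call was lost without WT DEN replicate 3 (limma adjusted p = 0.0597) or KO DEN replicate 2 (0.0555). A dimmer probe of Lpl had a difference of -1.33 and was called (limma adjusted p = 0.0110).

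Under DEN + PB the genotypes differed in 5 of 39 pathway genes, beside 7.60% of all genes tested, and nothing particular to the pathway is read from that count. Pnpla3, a lipid droplet acyl hydrolase, fell in KO with a difference of -2.16 ± 0.51 (limma adjusted p = 0.0176), from signals of 0.729, 1.24, 1.30 and 1.05 in WT to 0.125, 0.229, 0.573 and 0.191 in KO. Gpam, which starts triglyceride synthesis, fell by 0.82 ± 0.21 (limma adjusted p = 0.0276), from 0.991 to 1.29 in WT to 0.536 to 0.682 in KO. The groups of both genes did not overlap. Ppara, a receptor that switches on fatty acid oxidation and several droplet genes, rose by 0.73 ± 0.18 (limma adjusted p = 0.0204), from 14.3 to 24.8 in WT to 25.6 to 34.5 in KO. Lpin1, a phosphatidate phosphatase, was higher by 1.35 ± 0.40 (limma adjusted p = 0.0499), with signals of 4.54, 16.4, 7.96 and 27.6 in KO against 3.92 to 4.77 in WT. KO DEN + PB replicate 1 thus lay in the WT range. Dimmer probes of Lpin1 were higher by 1.41 and 1.47 and were called (limma adjusted p = 0.0428 and 0.0361). Hsd17b11, a droplet dehydrogenase, was higher by 0.63 ± 0.18 (limma adjusted p = 0.0432), and the groups overlapped. A second, dimmer probe of Hsd17b11 was higher by 0.44 and was not called (limma adjusted p = 0.428).

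When single arrays were left out, Pnpla3 lost its call without WT DEN + PB replicate 3 (-2.06) or KO DEN + PB replicate 4 (-2.05). The Ppara call was lost without WT DEN + PB replicate 3 (0.59) or KO DEN + PB replicate 2 (0.69) or 4 (0.69). Gpam lost its call without any 1 of WT DEN + PB replicates 1 (-0.74), 3 (-0.83) and 4 (-0.85) and KO DEN + PB replicates 2 (-0.84) and 4 (-0.75). The calls of Lpin1 and Hsd17b11 held in 1 and 5 of 16 such fits, with differences of 0.92 to 1.79 and 0.51 to 0.81. Over the 11 other settings Pnpla3 was called in 9, Gpam and Ppara in 7 each, Lpin1 in 2 and Hsd17b11 in 1. The difference of Pnpla3 was -1.20 and that of Gpam -0.55 with normexp background correction, and without scaling those of Ppara and Hsd17b11 were 0.39 and 0.29.

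For PB in KO, 2 of 39 pathway genes changed, beside 2.13% of all genes tested, and nothing particular to the pathway is read from that count either. Lpl rose by 1.29 ± 0.24 (limma adjusted p = 0.00886), to signals of 3.05, 2.54, 3.83 and 1.96 that were all above KO DEN. It remained called in 16 of 16 fits that left out an array. The dimmer probe of Lpl rose by 1.33 and was called (limma adjusted p = 0.0104). Srebf1, the lipogenic transcription factor, fell by 0.94 ± 0.21 (limma adjusted p = 0.0268), from 63.6 to 99.7 in KO DEN to 30.0 to 56.0 in KO DEN + PB. Its call held in 11 of 16 such fits and was lost without KO DEN replicate 1 (-0.93), 2 (-0.88) or 3 (-0.86) or KO DEN + PB replicate 1 (-0.92) or 4 (-0.75). Limma called 0 of 39 for PB in WT and 0 of 39 for the difference of PB effects, with 5 and 7 genes at an unadjusted p below 0.05, and the linear model without moderation called 0 and 0 as well. The median genotype difference (KO minus WT) over the 39 genes was -0.13 with DEN alone and 0.09 with added PB.

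**Figure D4:**
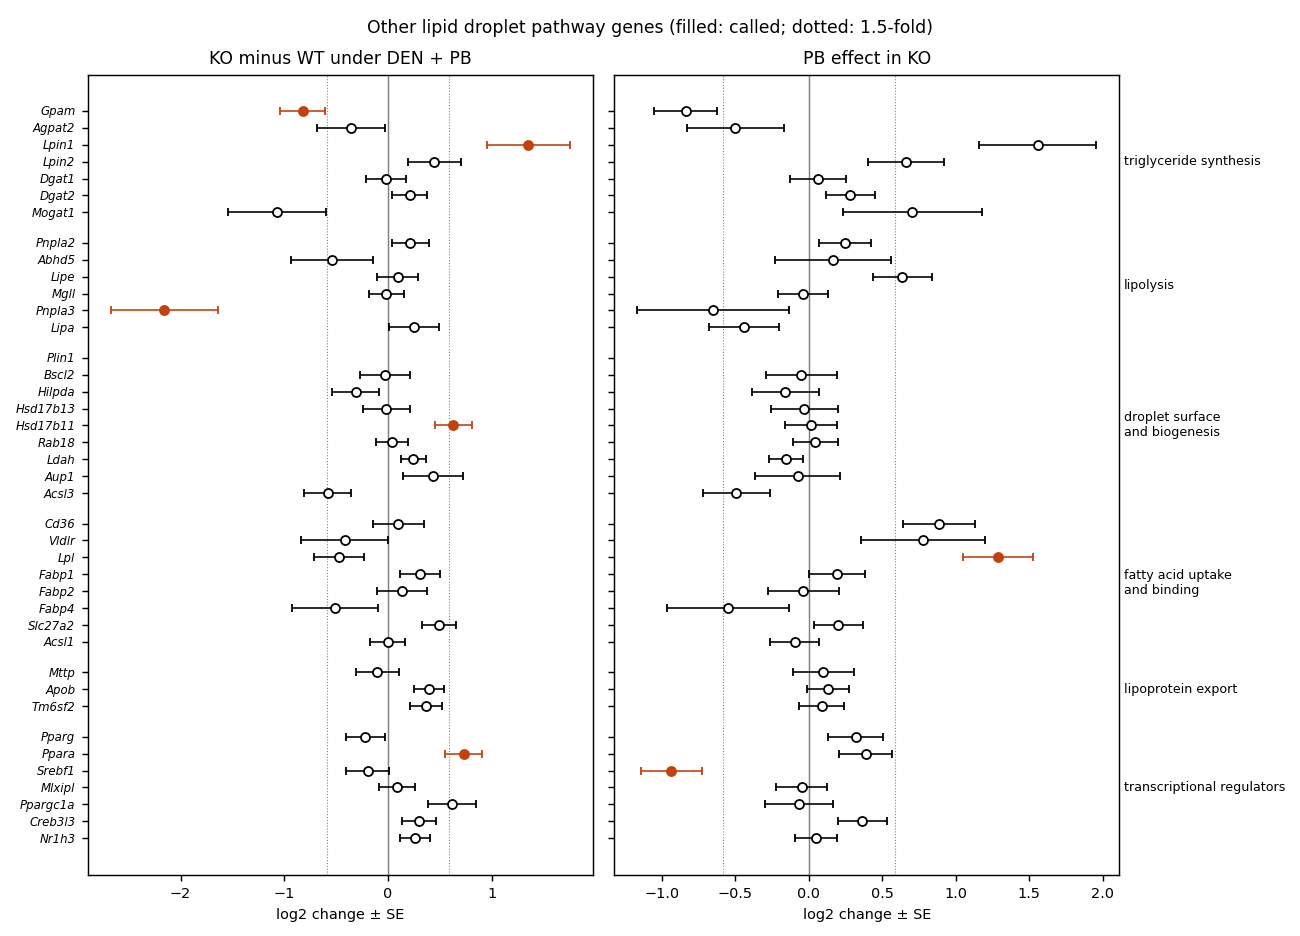
Fitted log2 difference ± SE of the other droplet pathway genes, ordered by role, for KO minus WT under DEN + PB and for PB in KO. Filled points were called and dotted lines mark 1.5-fold. Called genes were Gpam, Lpin1, Pnpla3, Hsd17b11 and Ppara on the left and Lpl and Srebf1 on the right.

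Whole liver holds cells other than hepatocytes, and in bulk RNA fewer cells of a type and less RNA per cell cannot be told apart. Adipocyte markers were therefore set beside the CIDE genes. Their summed signal over 6 genes ranged from 18.0 to 67.0 in WT DEN, 11.6 to 18.9 in WT DEN + PB, 7.60 to 30.2 in KO DEN and 5.33 to 9.03 in KO DEN + PB. Of these markers 3 of 6 were tested and 2 were called lower in KO under DEN, Cfd and Retn, beside 2.76% of all genes tested. The third, Fabp4, a fatty acid binding protein of adipocytes and macrophages, went the other way by 0.17 ± 0.41 (limma adjusted p = 0.854), with signals of 5.44 to 9.76 in WT DEN and 4.38, 9.86, 4.55 and 23.3 in KO DEN. Cfd, which encodes adipsin, had signals of 26.5, 11.5, 57.1 and 25.5 in WT DEN and 3.19, 0.924, 3.32 and 6.90 in KO DEN, a difference of -3.17 ± 0.54 (limma adjusted p = 0.00585). Retn, which encodes resistin, was well above background on all WT DEN and no KO DEN arrays and was at least 1.76-fold lower in KO DEN (limma adjusted p = 0.0183), a call that was lost without WT DEN replicate 3 (-1.77) or KO DEN replicate 2 (-1.73). Retn was called in 5 of 11 other settings, and its difference of -2.01 became -0.61 with normexp and -0.18 with normexp after spots of outlying background were dropped. Under DEN + PB 0 of 3 were called by limma, beside 7.60% of all genes tested, with 1 at an unadjusted p below 0.05 (Cfd). Adipoq, the defining adipocyte marker, was well above background on 1 of 16 arrays, and Lep and Plin1 on 0 of 16.

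Brown adipocyte markers had summed signals of 2.95 to 5.59 in WT DEN, 2.69 to 3.27 in WT DEN + PB, 2.56 to 5.51 in KO DEN and 2.04 to 3.02 in KO DEN + PB. The defining markers Ucp1, Dio2 and Zic1 were well above background on 0 of 16 arrays. Of the 7 markers 4 were tested, and 1, Lncbate1, was called by genotype under each regimen. Over all genes tested the shares called were 2.76% under DEN and 7.60% under DEN + PB. Cox7a1 was fitted higher in KO under DEN, with mean log2 signals of 1.62 in KO and 1.58 in WT. Cox8b was fitted higher in KO under DEN + PB (-3.04 in KO and -3.23 in WT). Prdm16 was fitted lower in KO under both regimens and was not called. The long noncoding RNA Lncbate1 was at least 29.1-fold lower in KO DEN (limma adjusted p = 0.00513), with fitted differences of -6.54 to -1.87 over the 11 other settings. In KO DEN + PB replicate 1 its signal was 0.878, above all 4 WT DEN + PB arrays (0.279 to 0.639), while the other 3 KO DEN + PB arrays were not well above background. Its difference there was -3.84 ± 1.08 (limma adjusted p = 0.0406), a call that held in 5 of 16 fits without 1 array and in 5 of 11 other settings, with -0.79 and -0.54 under the 2 normexp settings. The 4 skeletal muscle markers summed to at most 0.0862 on any array.

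**Figure D5:**
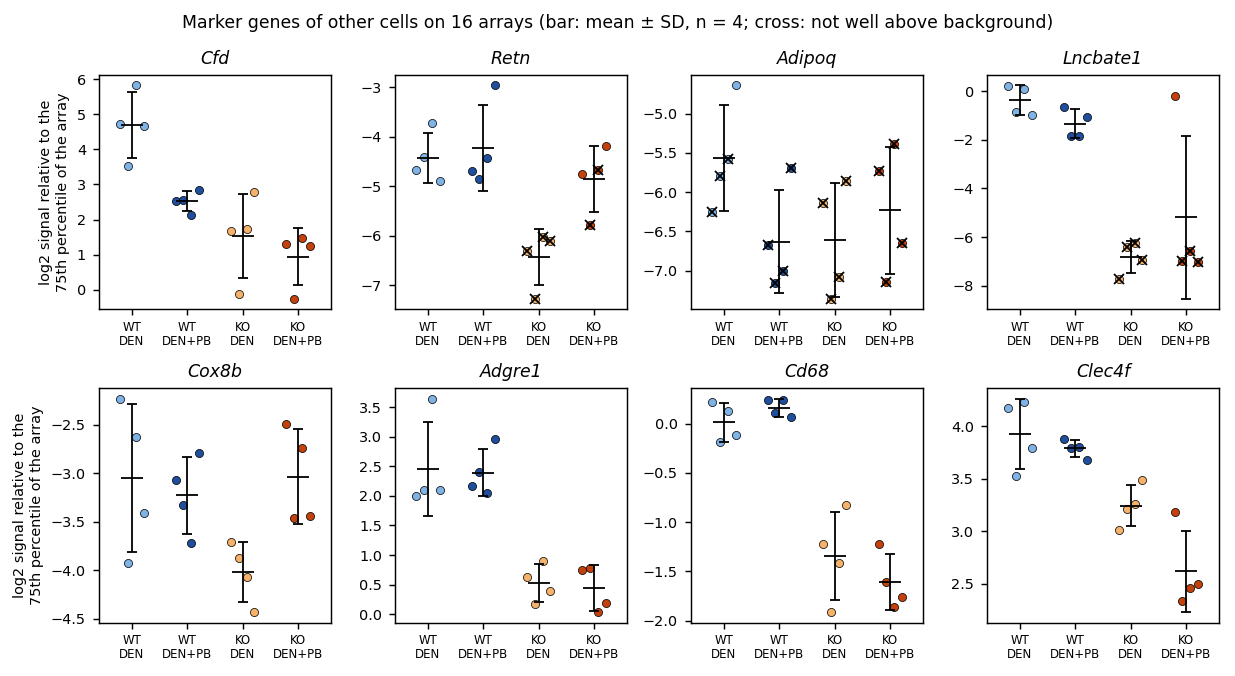
Marker genes of adipocytes (Cfd, Retn, Adipoq), brown adipocytes (Lncbate1, Cox8b) and macrophages (Adgre1, Cd68, Clec4f) on 16 arrays. Points are log2 signals relative to the 75th percentile of each array, bars are mean ± SD of 4 arrays and crosses are not well above background. Adipoq is crossed on 15 arrays, and Adgre1 and Cd68 are lower on every KO array than on any WT array.

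Of 5 macrophage and leukocyte markers, 4 were fitted lower in KO and 1, the T cell gene Cd3e, higher. Cd3e differed by 0.18 ± 0.26 under DEN and 0.37 ± 0.26 under DEN + PB (limma adjusted p = 0.742 and 0.415). Under DEN + PB all 4 KO arrays (0.173 to 0.259) were above all 4 WT arrays (0.146 to 0.171). Groups that did not overlap were found for 17.4% of all genes tested in that comparison. The summed signal of the 5 was 18.2 to 35.8 in WT DEN, 21.2 to 24.5 in WT DEN + PB, 11.1 to 14.5 in KO DEN and 8.01 to 12.2 in KO DEN + PB. Adgre1, the F4/80 antigen, was lower by a log2 difference of -1.94 ± 0.33 under DEN (limma adjusted p = 0.00542) and -1.95 ± 0.33 under DEN + PB (limma adjusted p = 0.00200). Cd68 was lower by -1.35 ± 0.20 and -1.77 ± 0.20 (limma adjusted p = 0.00236 and 0.000140). Clec4f, a Kupffer cell lectin, and Ptprc were called lower under DEN + PB. Thus 2 of 5 markers were called under DEN, beside 2.76% of all genes tested, and 4 of 5 under DEN + PB, beside 7.60%. The Ptprc call was lost without WT DEN + PB replicate 4 (-0.96) or KO DEN + PB replicate 2 (-1.12) or 4 (-1.09). A dimmer probe of Ptprc had a difference of -1.29 under DEN + PB and was called (limma adjusted p = 0.00185). The stellate cell markers Lrat and Reln were called lower under DEN + PB, with 2 of 4 in all, beside 7.60% of all genes tested. A second, dimmer probe of Lrat was lower by -0.80 and was not called (limma adjusted p = 0.0988). The 4 stellate markers summed to 5.03 to 5.75 in KO DEN + PB against 8.33 to 13.8 in WT DEN + PB. Under DEN 0 of 4 were called, with 3 fitted lower in KO and Col1a1 higher by 0.30 (limma adjusted p = 0.583). Of 5 hepatocyte markers 1, Tat, was called under DEN + PB, beside 7.60% of all genes tested. It was higher in KO by 0.67 ± 0.19 (limma adjusted p = 0.0418). The call held in 8 of 16 fits without 1 array and in 2 of 11 other settings. Under DEN 0 of the 5 were called. The part of these cell markers in the levels of Cidea and Cidec was not tested.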

How the data were processed

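RNA from 16 livers (4 groups of 4 male mice) was labelled with Cy3 and hybridised to 1-color Agilent whole mouse genome 44K arrays. The authors deposited the scanner output, made with Feature Extraction 12.0.3.1, as background-corrected fluorescence intensity per spot, together with a table of the same intensity values per probe. From these files, spots marked as outliers were dropped, spots were averaged per probe, and log2 of the processed intensity minus that of the 75th percentile of the array was used. Probes were named through RefSeq accessions (28223 of 41174 probes, 19096 genes), and a gene took its brightest probe. Differences were fitted with limma 3.58.1 in R 4.3.3 over all 16 arrays with 4 group means, for 24455 probes that 1 group or more had well above background on each of its 4 arrays, with Benjamini-Hochberg adjustment over all of them. The steps were tested on simulated data. Alternatives covered background correction (normexp, offset 50, fitted to the median spot signal since the mean was not a column used here), scaling, filter, blocks for slide and replicate number, and leaving out each array.

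The genes, the lists of pathway and marker genes and the tests were chosen with earlier results of these data known. Named genes were the 10 genes, called pathway genes, marker lists in full, and the 5 genes most like each of the 2 genes with the largest SD, of which 1 is not reported here. Replicates were separate mice. The arrays lay on 4 slides, unevenly by group. Slide 2 held 2 WT DEN arrays and no KO DEN array, and slide 4 held 2 KO DEN arrays and no WT DEN array. The number of arrays limits the precision. The genome build of the promoter table (GRCm38.p6) is that of RefSeq and was not used for probe positions.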

Additional observations from a re-analysis of the deposited data

Results flagged for a closer look

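Of 40 groups of 4 arrays (10 genes in 4 groups), 2 held 1 array that stood far from the other 3, where chance marks about 1 in 20 groups. Fitm1 in KO DEN had a signal of 0.605 in replicate 2 against 1.43 in the nearest array, a gap of 0.938 of the range of the group. Fitm2 in WT DEN had 0.157 in replicate 2 against 0.218 in the nearest array, a gap of 0.870 of the range. Both arrays were also low in most of the other lipid droplet genes.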

How the results depend on the processing

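No alternative reversed a called difference of a gene named. Counts of calls were unstable, and for the 10 genes, chosen from these signals, they are a description. For KO minus WT under DEN, 1 instead of 2 of the 10 genes was called with the normexp background correction, quantile normalization, the deposited series table without scaling, no filter, a filter of 8 arrays well above background, slide as a block, only the 2 groups compared, or no moderation of variances, and under DEN + PB 0 instead of 1 with normexp, no filter or no moderation and 2 with only the 2 groups compared. In the pathway list, calls for PB in KO went from 2 to 0 with normexp and to 1 with the series table, no filter, slide as a block, 2 groups only or no moderation. Calls for KO minus WT under DEN went from 1 to 0 with normexp or the series table and to 2 with slide as a block or when any probe of a gene counted. Calls under DEN + PB went from 5 to 0 with normexp, 1 without a filter, 2 with the series table, 2 groups only or no moderation, and 3 with normexp without spots of outlying background, quantile normalization, scaling to the median or slide as a block.

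With arrays left out in turn, the 10 genes gave 1 to 2 calls under DEN and 0 to 2 under DEN + PB, and the pathway list 0 to 1 and 0 to 4, with 1 to 3 for PB in KO. Deviations of arrays with the same replicate number correlated between -0.21 and 0.36, with a median of 0.01. For arrays with different numbers the range was -0.49 to 0.54, with a median of -0.02. Whether replicate numbers pair the mice cannot be decided from these ranges. With replicate number as a block, 2 of the 10 genes were called under DEN + PB, and 2 and 3 pathway genes under DEN and DEN + PB. Of the marker genes, normexp ended the calls of Cfd and Adgre1 under DEN (adjusted p = 0.0744 and 0.139) and of Adgre1, Clec4f, Ptprc, Lrat and Reln under DEN + PB (0.106 to 0.570), and the series table that of Cd68 under DEN (0.116), whereas each of these calls held in the other 10 settings. Over all genes, called genes fell from 367 under DEN to 12 with normexp, 54 with the series table and 140 with slide as a block. Under DEN + PB they fell from 1011 to 36 with normexp and to 874 with slide as a block. Without scaling the median over all genes was -0.31 for KO minus WT under DEN + PB and -0.29 for PB in KO, and 2.86% instead of 23.1% of the calls under DEN + PB were higher in KO. The causes were not tested. All 10 probes were well above background, and each group had 4 arrays.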
